A study of Mus musculus with 3 samples.

Results

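Proximal tubule barcodes carrying at least 1 unique molecular identifier (UMI, a count of 1 captured RNA molecule) of Vcam1 or Havcr1 numbered 298 in the 3 kidney libraries, of 60420 barcodes in all. They were chosen by their own RNA counts: at least 200 genes detected, at most 50% of UMIs from the mitochondrial genome, Vcam1 and Havcr1 together at 1 UMI or more, Slc34a1 and Lrp2 together at 3 UMIs or more, and no UMI of Pecam1, Emcn, Kdr, Ptprc or C1qa. The db/m control library held 72 of them, the db/db control library 62 and the db/db fructose library 164. The comparison set met the same rule without any Vcam1 or Havcr1 UMI and held 8200, 13574 and 12602 barcodes in that order, an order that every set of 3 values keeps. Those 9 genes chose the barcodes and carry no test here.

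All 3 groups were male mice whose whole kidneys were taken at 28 weeks of age. In db/db mice the signalling form of the receptor for leptin is missing, which makes them obese and diabetic, and lean db/m mice with 1 normal gene copy serve as their controls. The db/m mice and 1 group of db/db mice ate a control diet free of fructose, and the other db/db group ate a diet of 60% fructose, from 8 weeks of age for 20 weeks. A single library of cells, freed by collagenase and pronase, represents each group. How many animals it pools is not given in the sources used here.

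Vcam1 encodes an adhesion molecule of the cell surface, best known from activated endothelium, which tubule cells can also make. Havcr1 encodes KIM-1, a receptor for phosphatidylserine that appears on injured proximal tubule cells. After tubular injury, cells of the proximal tubule lose transport functions and take on a less differentiated state, from which most recover. Cells that keep Vcam1 and an inflammatory programme are known as failed-repair proximal tubule cells. Spp1, encoding the secreted phosphoprotein osteopontin, and Cryab, encoding a small heat shock protein, are further markers used for injured tubules.

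The libraries differed in quality and the sets in depth. Median mitochondrial shares of positive barcodes were 11.3%, 24.4% and 9.62%, against 15.2%, 25.1% and 10.2% in negative barcodes. Positive barcodes were deeper than negative ones, with medians of 4665, 1932 and 2199 UMIs against 1641, 1644 and 1562. A single db/db control barcode of 47147 UMIs supplied 23.0% of that library's positive UMIs, and another held 91 of the 96 UMIs of stromal and mural markers there. For single genes described below, too, 1 barcode could hold much of that library's positive UMIs. It held 54.3% for Gpx1, 42.1% for Anxa2, 40.0% for Sparc and for Cd74, and 39.5% for C3, not always the same barcode. The 3 library pairs shared 509, 379 and 780 barcode sequences, of which 1 was positive in both libraries of its pair (db/m control and db/db fructose).

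Nearly all of the positive barcodes were chosen by Vcam1. Vcam1 (ENSMUSG00000027962, chr3:116109949-116129688 of mm10, minus strand) alone marked 276 of the 298, Havcr1 (ENSMUSG00000040405, chr11:46735080-46779578, plus strand) alone marked 18, and 4 carried both. Vcam1 gave 181, 86 and 235 UMIs and Havcr1 29, 5 and 30, of which 23 of the 29 in db/m lay in 1 barcode. A single UMI of either gene made 224 of the 298 barcodes positive (75.2%), 26 had 2 and 48 had 3 or more. The set is therefore a set of barcodes with Vcam1 RNA far more than of barcodes with Havcr1 RNA.

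The label of proximal tubule held only in part. UMIs of 21 proximal tubule transporters outnumbered those of the thick ascending limb, distal convoluted tubule, connecting tubule, principal cell and intercalated lists together in 84.7%, 56.5% and 79.3% of positive barcodes and in 72.7%, 57.8% and 75.7% of negative ones. The summed transporter level was 4840, 6179 and 6809 CPM (a gene's counts scaled to 1000000 UMIs of the summed barcodes) in positive and 6588, 5918 and 8884 CPM in negative barcodes. Its higher value in db/db control rested on 1 barcode with 33.1% of those UMIs, without which it was 5374 CPM, beside 5912 CPM in negative barcodes without their top barcode. In db/db control the positive barcodes carried distal convoluted tubule markers at 2830 CPM, and at 1868 CPM once the barcode that held 49.2% of them was left out, beside 2668 CPM in negative barcodes. In db/m the same markers were at 125 CPM in positive and 1460 CPM in negative barcodes. RNA of other segments was thus present in both sets, and its part in the results was not tested.

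Positive barcodes made up 0.870% of proximal tubule barcodes in db/m, 0.455% in db/db control and 1.28% in db/db fructose, with exact 95% binomial intervals of 0.682 to 1.09, 0.349 to 0.583 and 1.10 to 1.50. After each barcode was thinned to 1500 UMIs, leaving out 3532, 5241 and 5794 shallower barcodes, the shares were 0.591%, 0.381% and 0.923%, with intervals of 0.393 to 0.853, 0.261 to 0.538 and 0.708 to 1.17. Distal convoluted tubule barcodes, which should hold little of either RNA, were measured the same way as background. Those with more distal marker than Slc34a1 and Lrp2 UMIs were positive in 0 of 807 in db/m, which allows up to 0.372% by the limit of 3 counts and has an upper exact bound of 0.456%, in 0.376% in db/db control and in 0.855% in db/db fructose, at median depths of 1732, 1807 and 1635 UMIs beside 1649, 1645 and 1565 for proximal tubule barcodes. The interval of the db/m share lay above that background as deposited. After thinning it did not: 0 of 481 background barcodes has an upper exact bound of 0.764%, above the thinned share of 0.591%. In db/db control and db/db fructose the intervals of both cell types overlapped with and without thinning, so a share above background was not detectable there. With 1 library per group the order of the shares has no replicate check, and intervals cover counting error only.

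**Figure D1:**
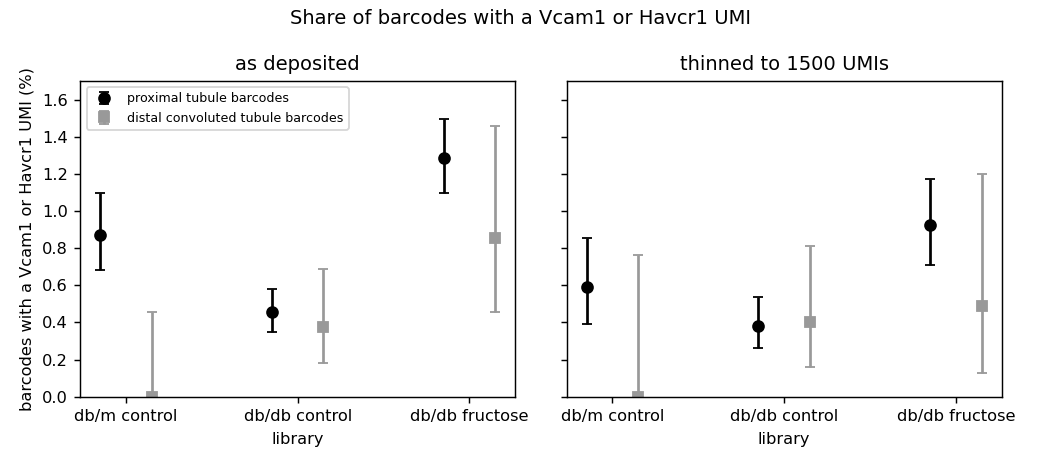
Share of barcodes with a Vcam1 or Havcr1 UMI (%, vertical axis) in each library for proximal tubule barcodes (black circles) and distal convoluted tubule barcodes with more distal marker than Slc34a1 and Lrp2 UMIs (grey squares), as deposited (left) and thinned to 1500 UMIs (right), with exact 95% intervals as bars. The black circle of db/m lies at 0.870% and its grey square at 0, whereas the bars of both cell types overlap in the db/db libraries and, after thinning, in db/m.

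The injury markers Spp1 and Cryab, named as markers of these cells with earlier results known and so described without a test, had higher sums in positive barcodes of all 3 libraries. Spp1 (ENSMUSG00000029304) was at 1495, 1730.4 and 6377 CPM in positive barcodes and 506, 898 and 1386 CPM in negative barcodes. It was thus highest in the db/db fructose library in both sets, and the positive value lay above the negative one in each library. Cryab (ENSMUSG00000032060) was at 1489, 171 and 553 CPM in positive barcodes and 245, 80.0 and 124 CPM in negative barcodes. In db/db control 1 barcode held 148 of the 354 Spp1 UMIs and 1 held 18 of the 35 Cryab UMIs of positive barcodes. Without the barcode with the most UMIs of the gene in each set, left out after the values were seen, Spp1 there was at 1093 CPM in positive and 884 CPM in negative barcodes, and Cryab at 85.8 and 73.9 CPM. Both differences in that library were thus small without 1 barcode, and thinned to 1500 UMIs Spp1 was seen in 63.1% of positive barcodes there (exact 95% interval 47.5 to 76.8) and 61.2% of negative ones. Cryab UMIs were found in 37 of 72, 8 of 62 and 46 of 164 positive barcodes and in 9.82%, 5.51% and 7.64% of negative ones. Set against the 5 negative barcodes nearest in total UMIs to each positive one, called depth-matched from here on, the log2 difference was 0.73 for Spp1 and 0.16 for Cryab, beside 1.38 and 1.83 without that matching. The match is not exact at the top, since the db/db control barcode of 47147 UMIs lies beyond the deepest negative one there, at 29564. The difference in Cryab was thus much smaller against depth-matched barcodes, and below the top 10% of UMIs it was -0.12. That of Spp1 was 0.20 below the top 10% of UMIs, -0.45 without barcodes holding a Cryab UMI and -1.19 with positivity set by Havcr1 alone. Havcr1 was found in only 3, 5 and 14 barcodes, so the last value rests on few of them.

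Across the transcriptome, 1415 of 13011 tested genes rose in positive barcodes (10.9%) and 1036 fell (7.96%), by edgeR's quasi-likelihood test on the 6 sums with library as a block. Of these, 1251 of the higher and 747 of the lower genes had the same direction in each of the 3 libraries. The largest rises among genes at 50 CPM or more were in Sfrp5, an inhibitor of Wnt signalling, Ubd, a ubiquitin-like protein induced by cytokines, Stc2, a secreted glycoprotein, Ptgds, which makes prostaglandin D2, Dpysl3, a cytoskeletal protein, and Sox9, a transcription factor of tubule repair. Sfrp5 was at 255, 0 and 22.9 CPM in positive barcodes and 1.21, 0.156 and 0.213 CPM in negative barcodes (log2 difference 7.0 ± 0.43 SE, edgeR adjusted p = 5.8e-43), and it was seen in 15, 0 and 6 positive barcodes. Stc2 was at 148, 63.5 and 53.8 CPM in positive barcodes and 3.70, 1.68 and 3.71 CPM in negative barcodes (log2 difference 4.59 ± 0.31 SE, edgeR adjusted p = 7.0e-36). Ptgds was at 751, 34.2 and 378 CPM in positive barcodes and 15.9, 5.82 and 24.0 CPM in negative barcodes (log2 difference 4.15 ± 0.37 SE, edgeR adjusted p = 3.5e-23), but at -0.30 (edgeR adjusted p = 0.99) with the top 10% of barcodes by UMIs left out. The remaining genes with the largest rises were C3, Cp, Mgp, Sparc, Lgals1 and Cxcl1, with log2 differences of 3.81, 3.71, 3.66, 3.63, 3.62 and 3.56. Of these, Mgp rests on 1 barcode: all 186 of its UMIs in db/db control came from the barcode rich in stromal markers, and without such barcodes its log2 difference was -2.86.

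These counts depended on the barcodes and libraries used. When depth-matched negative barcodes were used, 547 of 8835 genes rose (6.19%) and 429 fell (4.86%), and 482 of the 547 were among the 1415. Each list count against depth-matched barcodes below is to be read beside these 2 shares. List counts without matching are to be read beside 10.9% and 7.96%. With the top 10% of barcodes by UMIs left out, 114 of the 298 positive barcodes were lost, and 19 of 11935 genes rose (0.159%) and 16 fell (0.134%). Without barcodes holding a Cryab UMI 41 rose and 23 fell, and with positivity set by Havcr1 alone 16 and 6. Without db/m control 187 rose and 50 fell, without db/db fructose 247 and 108, and without db/db control 2073 and 1915. Without the library block 430 rose and 120 fell, and DESeq2 called 851 and 305. The 6 sums leave 2 residual degrees of freedom and the fit took the spread from all genes together, so adjusted p-values do not reflect spread between mice.

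**Figure D2:**
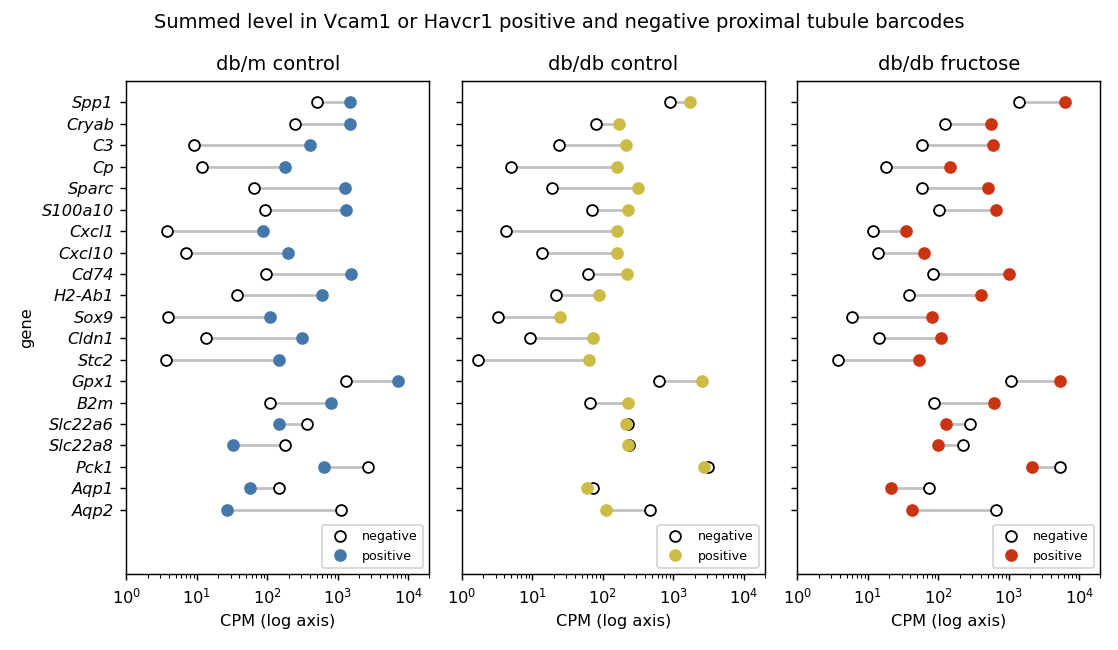
Summed level of 20 genes (CPM, log axis) in positive (filled) and negative (open) barcodes of each library. The genes from Spp1 to B2m lie higher in positive barcodes of all 3 libraries, and Slc22a6 to Aqp2 lie lower.

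Of a list of target genes of the transcription factor NF-kB, 13 of 17 tested rose; Vcam1, which chose the barcodes, is also such a target. The list held 21 genes in all, 1 fell (Tnfaip2), and the tested ones had a median log2 difference of 2.21 beside -0.12 over all genes. The chemokine Cxcl1, which attracts neutrophils, was at 87.5, 161 and 35.0 CPM in positive barcodes and 3.81, 4.22 and 11.9 CPM in negative barcodes (log2 difference 3.56 ± 0.31 SE, edgeR adjusted p = 1.9e-24). Cxcl10, an interferon-inducible chemokine for T cells, was at 196, 161 and 61.9 CPM in positive barcodes and 7.11, 13.5 and 13.9 CPM in negative barcodes (log2 difference 3.34 ± 0.27 SE, edgeR adjusted p = 2.7e-27). Cxcl2 was at 51.3, 39.1 and 2.69 CPM in positive barcodes and 0.693, 1.52 and 3.54 CPM in negative barcodes (log2 difference 3.68 ± 0.55 SE, edgeR adjusted p = 5.4e-09) and so was not higher in db/db fructose. Ccl2, which attracts monocytes, was at 0, 132 and 10.8 CPM in positive barcodes and 0.231, 1.17 and 0.64 CPM in negative barcodes (log2 difference 5.06 ± 0.71 SE, edgeR adjusted p = 5.2e-10), and 24 of the 27 UMIs in db/db control lay in 1 barcode. Others that rose were Cxcl16, Icam1, Bcl3, Nfkbia, Nfkb2, Birc3, Csf1, Irf1 and Tnfaip3, from 1.28 for Tnfaip3, an inhibitor of the pathway, to 3.01 for Cxcl16, on the log2 scale. Against depth-matched negative barcodes 8 of 13 tested genes rose and 1 fell, and below the top 10% of UMIs 1 of 16 rose, Cxcl2.

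The 250 bases before the starts of these genes were read for the 10-base kappaB consensus, the site NF-kB is known to bind, on both strands. RefSeq promoters on GRCm38.p6 were given for 11 of the 13 genes that rose and held a match for 8 of them, whereas 3.90% of all 32851 promoters of that length did (5.38% of tested genes). The list was put together from known targets, so matches in it follow from the choice of genes and say nothing about these barcodes. Rel, which did not pass the test, and Il6, which was not tested, held matches too. Vcam1 had no entry. The promoters of the 3 chemokines described above and of Nfkbia, an inhibitor of the pathway, are printed to show the matches in genes that rose. Capitals mark the bases that match, and overlapping matches on both strands run together.
Cxcl1, chr5:90890995-90891244, plus strand: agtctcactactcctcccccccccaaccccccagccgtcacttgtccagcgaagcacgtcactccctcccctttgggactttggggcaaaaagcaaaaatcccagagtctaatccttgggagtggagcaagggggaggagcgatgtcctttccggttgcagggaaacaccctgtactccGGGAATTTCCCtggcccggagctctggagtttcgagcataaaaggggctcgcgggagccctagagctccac
Cxcl2, chr5:90903649-90903898, plus strand: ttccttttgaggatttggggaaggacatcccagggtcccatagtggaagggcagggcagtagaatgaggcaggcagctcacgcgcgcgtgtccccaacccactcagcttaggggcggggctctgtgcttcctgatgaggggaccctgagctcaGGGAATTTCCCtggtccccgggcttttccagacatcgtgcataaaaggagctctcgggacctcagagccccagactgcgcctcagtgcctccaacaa
Cxcl10, chr5:92348890-92349139, minus strand: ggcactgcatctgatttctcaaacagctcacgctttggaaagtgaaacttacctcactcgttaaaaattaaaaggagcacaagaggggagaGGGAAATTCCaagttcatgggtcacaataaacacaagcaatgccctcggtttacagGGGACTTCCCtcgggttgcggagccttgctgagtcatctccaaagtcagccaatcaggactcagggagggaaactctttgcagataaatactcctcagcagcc
Nfkbia, chr12:55492648-55492897, minus strand: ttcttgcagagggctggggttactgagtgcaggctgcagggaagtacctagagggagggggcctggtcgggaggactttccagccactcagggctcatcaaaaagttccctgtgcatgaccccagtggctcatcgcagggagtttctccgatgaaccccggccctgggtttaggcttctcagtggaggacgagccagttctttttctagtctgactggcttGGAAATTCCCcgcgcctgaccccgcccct
The matches began 71 and 70 bases before the start in Cxcl1, 97 and 96 in Cxcl2, 159 and 103 in Cxcl10, and 29 in Nfkbia. A match describes letters and is not evidence of binding in these cells.

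Genes of failed repair rose with them. Of 18 genes listed besides Vcam1, 14 were tested, 10 rose and none fell by the same edgeR test, with a median of 2.17, and 9 of 10 tested against depth-matched negative barcodes also rose. Cp, encoding the copper-carrying ferroxidase ceruloplasmin, was at 181, 161 and 148 CPM in positive barcodes and 11.9, 4.92 and 18.3 CPM in negative barcodes (log2 difference 3.71 ± 0.27 SE, edgeR adjusted p = 1.3e-32). Tgfb2, a growth factor of the TGF-beta family, was at 36.1, 14.7 and 5.38 CPM in positive barcodes and 1.33, 0.898 and 1.54 CPM in negative barcodes (log2 difference 3.47 ± 0.65 SE, edgeR adjusted p = 8.9e-06). Akap12, a scaffold protein for signalling, was at 74.2, 24.4 and 71.3 CPM in positive barcodes and 9.65, 4.61 and 12.2 CPM in negative barcodes (log2 difference 2.54 ± 0.31 SE, edgeR adjusted p = 4.9e-13). Dock10, Relb, Dcdc2a, Pdgfb, Adamts1 and Sema5a also rose, as did Ccl2, and Pdgfd, Bcl2, Traf1 and Nfkb1 did not pass the test, at 0.54, -0.81, 1.09 and 0.60. Below the top 10% of UMIs 4 of 11 rose, Cp among them at 2.87.

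Secreted and surface injury markers were split. Of 20 listed, 19 were tested, 10 rose and 1 fell, Anxa1. Complement C3 was at 407, 210.2 and 600.1 CPM in positive barcodes and 9.07, 23.5 and 58.6 CPM in negative barcodes (log2 difference 3.81 ± 0.34 SE, edgeR adjusted p = 4.3e-23), and it was found in 30 of 72, 9 of 62 and 59 of 164 positive barcodes. The calcium-binding protein S100a10 was at 1316, 229.7 and 662 CPM in positive barcodes and 91.6, 69.5 and 101 CPM in negative barcodes (log2 difference 2.62 ± 0.36 SE, edgeR adjusted p = 2.5e-10). Its binding partner Anxa2 was at 447, 186 and 176 CPM in positive barcodes and 42.0, 16.6 and 29.7 CPM in negative barcodes (log2 difference 2.95 ± 0.29 SE, edgeR adjusted p = 1.8e-19). Timp2, Tnfrsf12a, Il34, Anxa3, Plaur and S100a11 rose too, whereas the widely used injury markers Lcn2 and Clu did not pass the test, at log2 differences of 0.88 and 0.10. Against depth-matched negative barcodes 7 of 18 rose and 1 fell, and C3 was still higher at 3.51, edgeR adjusted p = 8.7e-07.

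Keratins and other genes of epithelial dedifferentiation moved both ways: of 18 listed and tested, 7 rose and 5 fell, with a median of 0.05. Sox9 was at 110.3, 24.4 and 80.7 CPM in positive barcodes and 3.93, 3.24 and 5.88 CPM in negative barcodes (log2 difference 3.89 ± 0.32 SE, edgeR adjusted p = 7.7e-27). Krt20, a keratin of injured tubules, was at 3.8, 19.6 and 26.9 CPM in positive barcodes and 0.462, 0.352 and 0.682 CPM in negative barcodes (log2 difference 4.76 ± 0.77 SE, edgeR adjusted p = 1.2e-07), with 16 of its 20 UMIs in db/db fructose in 1 barcode. Cd44, Sox4, Cldn3, Cdh6 and Krt8 rose. Cldn4, Krt7, Krt18, Cd24a and Epcam fell. These are also made by distal nephron and collecting duct cells, whose own markers were lower in positive barcodes too, and the part of those cells in the falls was not tested. Vim, a filament protein often gained by injured tubule cells, did not pass the test at 0.61. Against depth-matched negative barcodes 3 of 15 rose and 7 fell.

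Markers of the parietal epithelium, the flat cells that line Bowman's capsule, rose in part. Of 8 listed and tested, 4 rose and none fell in the edgeR test: Cldn1, a tight junction protein, Wt1, a transcription factor, Ncam1, an adhesion molecule, and Scin, an actin-severing protein. Cldn1 was at 310.0, 73.3 and 110.3 CPM in positive barcodes and 13.5, 9.37 and 14.2 CPM in negative barcodes (log2 difference 3.40 ± 0.28 SE, edgeR adjusted p = 9.7e-26), and against depth-matched negative barcodes at 2.88, edgeR adjusted p = 1.1e-05. Wt1 was at 66.6, 9.78 and 20.2 CPM in positive barcodes and 12.8, 0.664 and 2.0 CPM in negative barcodes (log2 difference 2.67 ± 0.39 SE, edgeR adjusted p = 4.3e-09). Summed over the list the level was 681, 230 and 322 CPM in positive and 139.6, 122 and 132 CPM in negative barcodes. Alcam, Dkk3, Ncald and Lad1 did not pass the test, at -0.35, 0.55, 0.14 and -0.45, and the part of parietal cells in the results was not tested.

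Antigen presentation genes rose, in barcodes that by rule held no UMI of the immune genes Ptprc and C1qa. Of 14 interferon and MHC class I genes, all tested, 7 rose and none fell by edgeR: Psmb8 and Psmb9 of the immunoproteasome, B2m, H2-K1 and H2-D1 of class I, and the interferon-induced Ifi27 and Bst2. B2m was at 791, 225 and 618 CPM in positive barcodes and 111, 65.0 and 87.8 CPM in negative barcodes (log2 difference 2.33 ± 0.33 SE, edgeR adjusted p = 1.5e-09). The classical interferon targets Ifit1, Ifit3, Isg15 and Irf7 did not pass, at 0.95, -0.20, 1.09 and 1.54. Among MHC class II genes, a list added after its values were seen, 6 of 7 rose. Cd74, the invariant chain, was at 1546, 220.0 and 996 CPM in positive barcodes and 95.1, 61.4 and 85.3 CPM in negative barcodes (log2 difference 3.03 ± 0.38 SE, edgeR adjusted p = 3.9e-12). H2-Ab1, a class II beta chain, was at 597, 88.0 and 399.6 CPM in positive barcodes and 36.5, 21.8 and 38.1 CPM in negative barcodes (log2 difference 3.10 ± 0.33 SE, edgeR adjusted p = 1.3e-16). Against depth-matched negative barcodes Cd74 stood at 1.95, edgeR adjusted p = 7.6e-04, and 5 of the 5 class II genes tested rose. Below the top 10% of UMIs 3 of 5 class II genes rose.

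Class II RNA was concentrated in part of the positive barcodes. At least 5 UMIs of Cd74, H2-Aa, H2-Ab1 and H2-Eb1 together were found in 31 of 72, 6 of 62 and 37 of 164 positive barcodes, and in 0.707%, 0.287% and 0.413% of negative ones. Of those positive barcodes, 27, 4 and 32 had no UMI of any of the other 8 macrophage and dendritic markers. Those markers were C1qb, C1qc, Csf1r, Tyrobp, Fcer1g, Cd68, Ctss and Lyz2. They summed to 30.4, 48.9 and 14.8 CPM in positive and 28.8, 36.3 and 27.2 CPM in negative barcodes. In db/m 1 negative barcode held 251 of the 498 UMIs. Without the top barcode of each set the sums were 21.0, 39.4 and 12.1 against 14.3, 33.7 and 26.0 CPM. Such a UMI was found in 8.33%, 14.5% and 6.10% of positive and 1.91%, 3.74% and 3.55% of negative barcodes. Thinned as for Spp1 above, these shares were 2.54%, 5.94% and 1.49% against 1.54%, 2.98% and 2.93%. Lyz2 fell (log2 difference -2.04 ± 0.66 SE, edgeR adjusted p = 0.017). It had 1, 3 and 0 UMIs in positive barcodes and stood at 0.52 below the top 10% of UMIs. The class II barcodes had median depths of 13026, 7052 and 11068 UMIs and medians of 27, 25.5 and 36 UMIs of Slc34a1 and Lrp2. Of the 10 complement genes, C3, Cfi, Serping1 and C1ra rose, and in Serping1 14 of 17 UMIs came from db/db control. Without barcodes rich in stromal markers Serping1 stood at -0.38.

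Cytoskeletal genes rose, whereas matrix genes mostly did not pass the test. Of 20 actin and tubulin genes tested, 12 rose and none fell by edgeR, among them Tubb6, Tuba1a, Tmsb10 and Tagln2. Tmsb10, which binds actin monomers, was at 751, 313 and 394 CPM in positive barcodes and 71.3, 43.4 and 58.5 CPM in negative barcodes (log2 difference 2.82 ± 0.32 SE, edgeR adjusted p = 1.5e-14). Of 17 matrix and TGF-beta genes, 4 rose and none fell: Sparc, Col18a1, Mmp14 and Ccn1. Sparc, a secreted matrix protein, was at 1253, 318 and 506 CPM in positive barcodes and 64.8, 18.8 and 57.8 CPM in negative barcodes (log2 difference 3.63 ± 0.35 SE, edgeR adjusted p = 9.5e-20). Fn1, Tgfb1 and Ccn2 did not pass, with log2 differences of 2.07, 1.15 and 0.61. Against depth-matched negative barcodes 3 of 18 cytoskeletal genes rose and 1 fell, and 4 of 13 matrix genes rose, beside 6.19% and 4.86% of all genes that rose and fell.

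Of 12 cell cycle genes tested, 3 rose, Stmn1, Tubb5 and Cdkn1a, and 1 fell, Mki67, beside 10.9% and 7.96% of all genes. Below the top 10% of UMIs none of 11 was called by edgeR, and Stmn1 and Tubb5 stood below 0, at -1.26 and -0.20. Cdkn1a, encoding the cell cycle inhibitor p21, was at 122, 58.7 and 188 CPM in positive barcodes and 18.1, 33.3 and 28.9 CPM in negative barcodes (log2 difference 2.12 ± 0.27 SE, edgeR adjusted p = 1.0e-11). Mki67, a mark of dividing cells, had 0, 0 and 1 UMIs in positive barcodes. The division genes Top2a, Pcna, Mcm2 and Mcm5 did not pass, at -0.95, 0.53, 0.58 and 0.59. Among 22 AP-1 and dissociation genes, which enzymatic release of cells can raise, 6 rose and 1 fell, Hspa1a. Atf3, a stress transcription factor, was at 812, 225 and 413 CPM in positive barcodes and 95.1, 54.0 and 81.8 CPM in negative barcodes (log2 difference 2.33 ± 0.32 SE, edgeR adjusted p = 4.0e-10), and Fos, Jun and Junb were at 0.42, 0.16 and 0.57 without passing the test. How far the digestion of the tissue moved these genes was not tested.

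**Figure D3:**
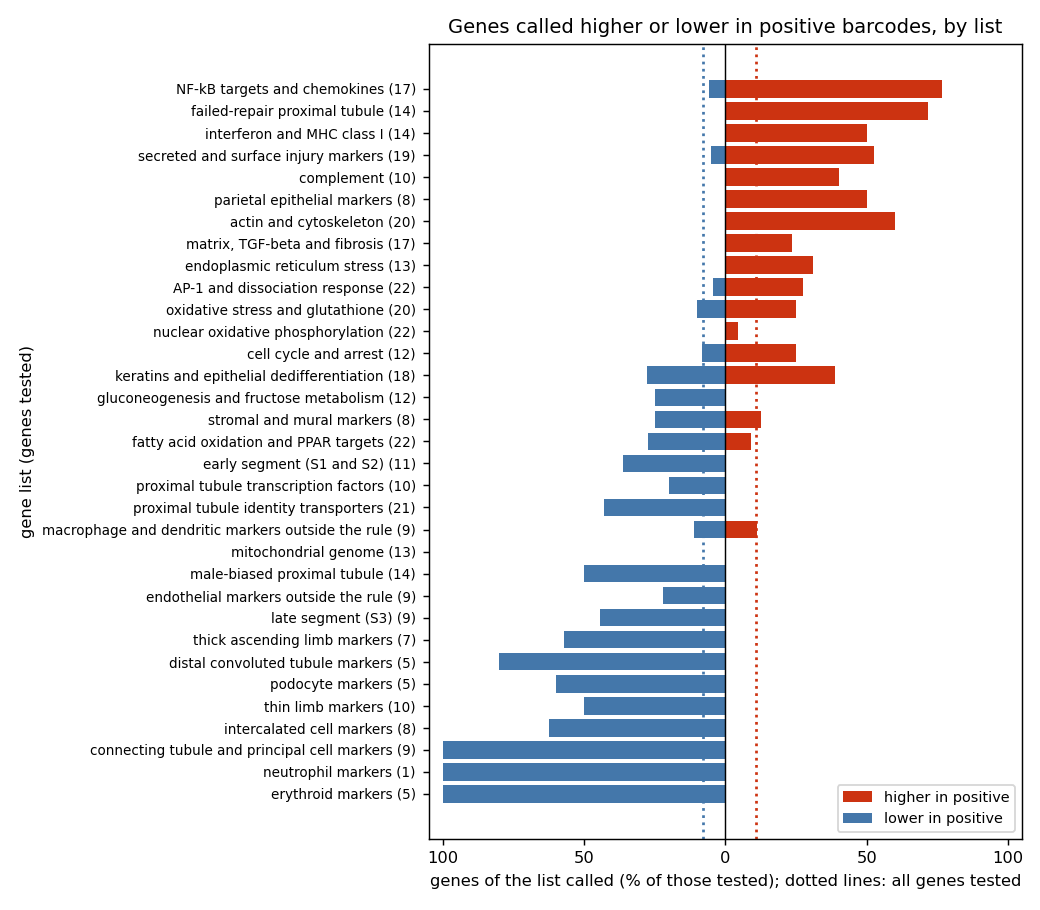
For each gene list, the share of its tested genes (%, horizontal axis) called higher (red, right) or lower (blue, left) in positive barcodes at an edgeR adjusted p under 0.05, ordered by the list's median log2 difference, with the number tested in brackets. Dotted lines mark the shares over all genes, 10.9% and 7.96%. Of the NF-kB list 13 of 17 genes were higher, and all 9 connecting tubule and principal cell markers and all 5 erythroid genes were lower.

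Transport genes that define the proximal tubule fell in part and none of them rose. Of 21 identity transporters tested, 9 fell, with a median of -0.60. Slc22a8, an organic anion transporter, was at 32.3, 229.7 and 98.2 CPM in positive barcodes and 176, 233 and 222 CPM in negative barcodes (log2 difference -1.32 ± 0.32 SE, edgeR adjusted p = 7.6e-04). Slc22a6, its relative, was at 148, 215 and 126 CPM in positive barcodes and 362, 225 and 284 CPM in negative barcodes (log2 difference -1.05 ± 0.32 SE, edgeR adjusted p = 0.0095). The water channel Aqp1 was at 57.0, 58.7 and 21.5 CPM in positive barcodes and 146, 73.6 and 73.6 CPM in negative barcodes (log2 difference -1.41 ± 0.30 SE, edgeR adjusted p = 1.2e-04). In db/db control both Slc22 transporters stood at nearly the same level in both sets. There, however, 1 positive barcode held 17 of the 44 Slc22a6 UMIs and 1 held 17 of the 47 Slc22a8 UMIs. Both transporters were lower in positive barcodes of the other libraries. Slc5a12, Slc22a12, Slc13a3, Slc17a3, Slc34a3 and Cubn also fell, whereas the glucose transporter Slc5a2 did not pass at -0.42. Against depth-matched negative barcodes 2 of 21 fell and 1 rose, beside 4.86% and 6.19% of all genes, so most of the 9 falls were not called at matched depth.

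Of the genes that set proximal identity, 2 of 10 transcription factors fell, Ppara and Esrra, beside 7.96% of all genes. Hnf4a did not pass, at -0.49. Of early segment genes 4 of 11 fell, and of late segment genes 4 of 9, with no rise in either by edgeR. Slc7a13, a late segment amino acid transporter that is higher in males, was at 51.3, 4.89 and 6.73 CPM in positive barcodes and 169.6, 7.89 and 36.6 CPM in negative barcodes (log2 difference -2.04 ± 0.36 SE, edgeR adjusted p = 1.8e-06). Of 14 male-biased genes 7 fell, among them Kap and Slco1a1, beside 7.96% of all genes. Slco1a1 had 20, 0 and 0 UMIs in positive barcodes and was at 178, 0.977 and 7.08 CPM in negative ones. Its fall thus rested mostly on db/m. Acsm3, also on the list and called lower, was at 98.7, 5.90 and 3.84 CPM in negative barcodes. Kap, encoding an androgen-regulated kidney protein, differed by -1.43 on the log2 scale.

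Of 12 genes of gluconeogenesis and fructose metabolism 3 fell and none rose by edgeR, beside 7.96% and 10.9% of all genes. Against depth-matched negative barcodes 3 fell and 3 rose. Pck1, the enzyme that commits carbon to glucose, was at 643, 2718 and 2165 CPM in positive barcodes and 2709, 3154 and 5296 CPM in negative barcodes (log2 difference -1.38 ± 0.46 SE, edgeR adjusted p = 0.021). G6pc, which releases glucose, was at 122, 323 and 252 CPM in positive barcodes and 370.2, 351 and 559 CPM in negative barcodes (log2 difference -1.15 ± 0.33 SE, edgeR adjusted p = 0.0066), and Ppargc1a, a transcriptional coactivator, also fell. In db/db control 1 positive barcode held 242 of the 556 Pck1 UMIs and 1 held 34 of the 66 G6pc UMIs. Below the top 10% of UMIs Pck1 and G6pc also fell, at -0.63 and -0.98 (edgeR adjusted p = 0.039 and 0.0015). The fructose gene Khk, encoding ketohexokinase, did not pass, at 0.61. Of 22 genes of fatty acid oxidation, Cpt1a, Ehhadh, Acsl1, Acsm3, Cd36 and Ppara fell. The lipid droplet protein Plin2 was among the 2 genes of that list that rose (log2 difference 1.03 ± 0.26 SE, edgeR adjusted p = 0.0019).

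Some genes of stress defence and most genes of the ribosome rose. Over all genes 10.9% rose and 7.96% fell, so the 2 falls among 20 oxidative stress genes were near that share. Of 20 oxidative stress genes 5 rose and 2 fell: Gpx1, a peroxidase that removes hydrogen peroxide, was at 7158, 2586 and 5268 CPM in positive barcodes and 1288, 619 and 1068 CPM in negative barcodes (log2 difference 2.09 ± 0.46 SE, edgeR adjusted p = 2.1e-04), and Gstm1, Gpx4, Hmox1 and Prdx1 rose while Gsta4 and Mt1 fell. In db/db control 1 barcode held 287 of the 529 Gpx1 UMIs of positive barcodes. Of 13 endoplasmic reticulum genes Sdf2l1, Manf, Pdia6 and Calr rose. Below the top 10% of UMIs none of these 20 and 13 genes was called by edgeR, 15 and 11 of them had a difference below 0, and Gpx1 stood at -0.10 (adjusted p = 0.97). Ribosomal protein genes, a list added after its values were seen, rose in 73 of 80, with a median of 1.22, in 48 of 80 against depth-matched negative barcodes, and in 0 of 80 below the top 10% of UMIs. Of 22 nuclear genes of oxidative phosphorylation 1 rose, Ndufb8, and none of the 13 mitochondrial genes was called by edgeR, all 13 with a difference below 0.

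Markers of other nephron segments were among the largest falls. All 9 connecting tubule and principal cell markers fell, as did 4 of 5 distal convoluted tubule, 4 of 7 thick ascending limb and 5 of 8 intercalated markers. The water channel of the collecting duct Aqp2 was at 26.6, 112 and 41.7 CPM in positive barcodes and 1106, 474 and 659 CPM in negative barcodes (log2 difference -3.98 ± 0.42 SE, edgeR adjusted p = 3.6e-17). Hsd11b2, which protects the mineralocorticoid receptor from cortisol-like steroids, was at 9.51, 53.8 and 10.8 CPM in positive barcodes and 394, 157 and 233 CPM in negative barcodes (log2 difference -3.97 ± 0.40 SE, edgeR adjusted p = 1.2e-18). The salt transporter Slc12a3 fell over the 3 libraries (log2 difference -1.67 ± 0.45 SE, edgeR adjusted p = 0.0034) but was at 64.7, 2165 and 608 CPM in positive barcodes and 1155, 1745 and 1375 CPM in negative barcodes, so it was higher in positive barcodes of db/db control. That excess rested on the barcodes that stand apart: without them Slc12a3 was at 1308 CPM in db/db control, a log2 ratio of -0.42 to negative barcodes (exact 95% interval -0.62 to -0.21). The remaining lowest genes were Fxyd4, Aqp3, Atp6v1g3, Rhcg, Slco1a1, Cdo1, Gstm2, Slc22a28, Klhl3 and Slc7a13, from -3.19 to -2.04 on the log2 scale.

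Erythroid, podocyte and endothelial markers had lower sums in positive barcodes of all 3 libraries. All 5 erythroid genes fell, and their sum was 3.8, 14.7 and 24.2 CPM in positive and 3231, 1475 and 1278 CPM in negative barcodes, and 2.78%, 4.84% and 7.93% of positive and 4.89%, 4.24% and 5.44% of negative barcodes carried them. The share of barcodes with an erythroid UMI was thus lower in positive barcodes of db/m alone, while the sum was lower in all 3 libraries. Podocyte markers fell in 3 of 5, with a sum of 9.51, 14.7 and 17.5 CPM in positive and 188, 26.2 and 31.6 CPM in negative barcodes. Endothelial markers outside the rule summed to 24.7, 58.7 and 53.8 CPM in positive and 44.2, 83.5 and 112 CPM in negative barcodes. The share of barcodes with such a UMI went the other way, at 12.5%, 16.1% and 18.3% of positive and 5.93%, 12.1% and 14.7% of negative barcodes. Those shares were not thinned, and positive barcodes were deeper. Lymphocyte markers gave 0, 0 and 4 UMIs in positive barcodes and neutrophil markers 0, 0 and 1. The stromal and mural markers summed to 24.7, 469 and 45.8 CPM in positive and 48.2, 63.5 and 133 CPM in negative barcodes, so they were higher in db/db control, where the value without the barcode rich in them was 25.3 CPM. The myeloid and parietal sums given above were not lower throughout either. Among 8 stromal and mural genes Rgs5 rose and Acta2 and Myh11 fell, and of 46 Rgs5 UMIs 40 came from db/db control. Without db/db control Rgs5 stood at -1.36.

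Levels within the set differed with the number of Vcam1 and Havcr1 UMIs, which chose the set, and are described without a test. Barcodes with 1, 2 and 3 or more such UMIs had median depths of 1877, 6687 and 9577 UMIs over the 3 libraries. In db/m, C3 was at 411, 447 and 379 CPM in these 3 classes of barcodes, Cd74 at 1577, 2424 and 974 CPM, and Nfkbia, an inhibitor of NF-kB induced by it, at 193, 295 and 477 CPM. In db/db control, the 50 barcodes with 1 UMI had C3 at 40.9, Cd74 at 88.6, Nfkbia at 75 and Spp1 at 614 CPM, close to negative barcodes at 23.5, 61.4, 47.2 and 898 CPM. The 7 barcodes with 3 or more there had 897, 598, 1321 and 5831 CPM. Both classes lean on single barcodes. The 50 include the barcode of 47147 UMIs, and the 7 include the barcode with 148 of the 354 Spp1 UMIs of that library's positive barcodes. In db/db fructose, the 130 barcodes with 1 UMI already had C3 at 507, Cd74 at 864 and Spp1 at 5508 CPM, against 58.6, 85.3 and 1386 CPM in negative barcodes.

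Positive barcodes with and without Cryab also differed. The 91 positive barcodes with a Cryab UMI had a median of 10422 UMIs, and the 207 without had 1729. C3 was at 651 and 161 CPM in the first and the second, Cd74 at 1565 and 210.5 CPM, Sparc at 1112 and 82.3 CPM, Cldn1 at 252 and 38.3 CPM, and Slc22a6 at 61.0 and 302 CPM. Negative barcodes with a Cryab UMI, 2516 in number, differed from them: C3 was at 43.4, Cd74 at 178, Cldn1 at 23.5 and the principal cell gene Aqp2 at 4134 CPM, beside 10.5 CPM of Aqp2 in the positive barcodes with Cryab. Depth and Cryab went together in the set, and which of them the other genes follow cannot be told apart.

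**Figure D4:**
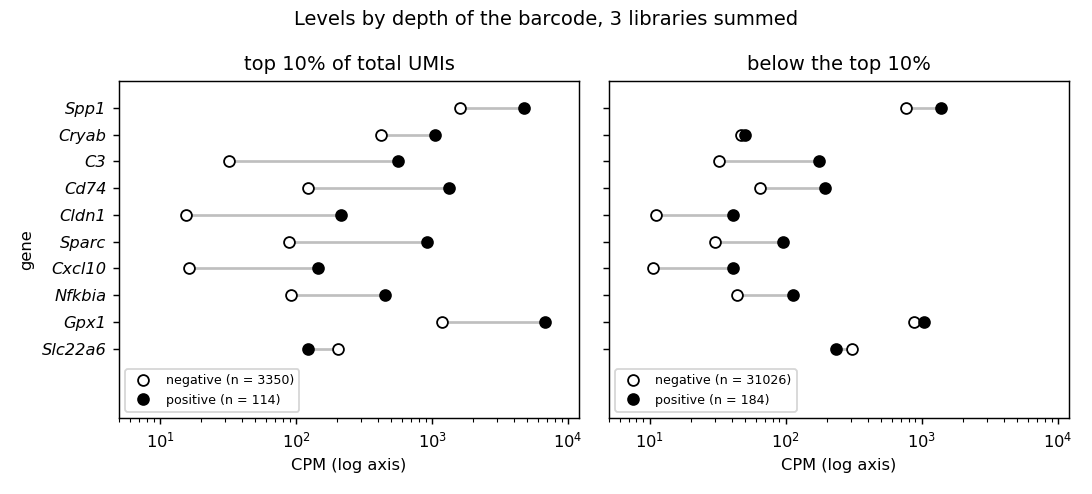
Summed level of 10 genes (CPM, log axis) over the 3 libraries in positive (filled) and negative (open) barcodes, for the top 10% of barcodes by UMIs (left) and those below (right). C3 was at 559 against 32.3 CPM on the left and 177 against 32.1 CPM on the right, while Gpx1 was at 6810.1 against 1174 CPM on the left and 1031 against 880.5 CPM on the right.

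The 22 barcodes with Havcr1 were few and spread thinly, 3, 5 and 14. In db/db fructose they had Spp1 at 8532, C3 at 480 and Cd74 at 623 CPM, and Sox9 at 17.8 CPM beside 92.0 CPM in barcodes with Vcam1 only. That Sox9 value rests on very few UMIs, since these 14 barcodes held 112403 UMIs of all genes. In db/m and db/db control Spp1 was at 146 and 322 CPM in barcodes with Havcr1, below the 506 and 898 CPM of negative barcodes. C3 was at 195 and 322 CPM there, and Cd74 at 195 and 0 CPM. Those 3 and 5 barcodes held only 20502 and 9318 UMIs of all genes. The Spp1, C3 and Cd74 values of both libraries thus rest on very few UMIs and give no firm direction. At the edge of the rule, 25 positive barcodes had exactly 3 UMIs of Slc34a1 and Lrp2, with C3 at 466, Cryab at 725 and Slc12a3 at 3003 CPM, and 20 barcodes with 2 such UMIs fell just outside, with 126, 1832 and 1944 CPM. By library the 25 were 3, 8 and 14 barcodes, with C3 at 303, 997 and 217 CPM and Cryab at 1591, 1056 and 108 CPM. The 25 and the 20 held only 57951 and 71489 UMIs of all genes, so single barcodes can carry these levels.

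Between db/m and db/db control, levels in positive barcodes were compared as ratios of 2 sums, with no test. Of 5763 genes with at least 20 counts over both sums, 705 were at least 2-fold higher in db/db control (12.2%) and 1458 at least 2-fold lower (25.3%). Of these, 28 and 131 moved 2-fold the same way in negative barcodes. The share of all measured genes that moved 2-fold in negative barcodes is not given here, and the positive sums hold far fewer UMIs. The overlap therefore does not show how many changes were particular to the positive set. The male-biased gene Kap was at 1770.4 CPM in db/m and 44.0 CPM in db/db control (log2 ratio -5.33, 95% interval -6.46 to -4.40, and -5.56 in negative barcodes), so its fall was as large outside the set. Cd74 was lower in db/db control (log2 ratio -2.81, 95% interval -3.28 to -2.38, and -0.63 in negative barcodes), and all 5 measured class II genes were at least 2-fold lower. Cryab was lower as well (log2 ratio -3.12, 95% interval -3.65 to -2.63, and -1.62 in negative barcodes), as was Ptgds (log2 ratio -4.46, 95% interval -5.78 to -3.40, and -1.45 in negative barcodes). Spp1 differed little (log2 ratio 0.21, 95% interval 0.03 to 0.39, and 0.83 in negative barcodes). Without the barcode with the most Spp1 UMIs in each library, it was at 1093 CPM in db/db control and 1337 CPM in db/m. Its direction was thus not kept. All these intervals cover counting error of UMIs only, and not the spread between barcodes. Pck1 was higher (log2 ratio 2.08, 95% interval 1.88 to 2.28, and 0.22 in negative barcodes), with 242 of its 556 UMIs in db/db control in 1 barcode. Also higher were 4 of 4 measured distal convoluted tubule genes, 3 of them also in negative barcodes, with Slc12a3 at log2 ratio 5.07, 95% interval 4.56 to 5.61, and 0.59 in negative barcodes.

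The remaining extremes of that comparison were Mgp, Rgs5, Mfap4, Vim and Cyp24a1 on the higher side and Cldn3, Fdps, Rarres2 and Sfrp5 on the lower. Mgp and Mfap4 had 186 and 38 UMIs in db/db control and 0 in db/m, all from barcodes that stand apart, and none without them. Cyp24a1, which degrades vitamin D, was at 284 CPM in db/db control and 3.8 CPM in db/m, and at 354 and 45.1 CPM in negative barcodes, and 28 of its 58 UMIs in db/db control remained without the barcodes that stand apart. Leaving out the 4 positive barcodes of the 3 libraries that had over 40000 UMIs or at least 5 UMIs of stromal markers, 382 of 5329 genes were higher and 1442 lower, and Slc12a3 stood at 4.38 and Cd74 at -2.55.

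Between db/db control and db/db fructose, 1132 of 6899 genes were at least 2-fold higher with fructose (16.4%) and 360 at least 2-fold lower (5.22%). Of these, 48 and 8 were also so in negative barcodes, an overlap with the same limit as above. Without the same barcodes, 1269 of 6582 were higher and 186 lower. Spp1 was higher with fructose (log2 ratio 1.88, 95% interval 1.73 to 2.04, and 0.63 in negative barcodes), and Cd74 too (log2 ratio 2.18, 95% interval 1.74 to 2.65, and 0.47 in negative barcodes), with all 5 measured class II genes at least 2-fold higher. Without the barcode with the most Spp1 UMIs in each library, Spp1 was at 5436 CPM with fructose and 1093 CPM in db/db control. The intervals here, too, cover counting error only and not the spread between barcodes. C3 was higher by nearly the same ratio in both sets (log2 ratio 1.51, 95% interval 1.06 to 2.0, and 1.32 in negative barcodes). The chemokines Cxcl1 (log2 ratio -2.21, 95% interval -3.0 to -1.42, and 1.49 in negative barcodes) and Cxcl10 (log2 ratio -1.38, 95% interval -2.06 to -0.69, and 0.05 in negative barcodes) were lower in the positive barcodes of the fructose library. Both had 33 UMIs in db/db control, of which 1 barcode held 14 for Cxcl1 and 1 held 11 for Cxcl10. With fructose 1 barcode held 8 of 26 Cxcl1 UMIs and 1 held 18 of 46 Cxcl10 UMIs. Pck1 was slightly lower in positive barcodes (log2 ratio -0.33, 95% interval -0.47 to -0.19, and 0.75 in negative barcodes), and at 0.06 without the same barcodes. Of 17 secreted injury markers measured, 9 were at least 2-fold higher with fructose and 1 lower, beside 5 and 0 in negative barcodes.

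The most extreme ratios with fructose were those of Snapc5, Pak1, Tex261, Rarres2, Id4 and Ptgds on the higher side. The first 5 rested on 1 UMI each in db/db control, and Ptgds was at 378 against 34.2 CPM (log2 ratio 3.47, 95% interval 2.40 to 4.79, and 2.04 in negative barcodes). On the lower side Mgp, Bgn, Mfap4, Lum, Tmem158 and Rgs5 had 186, 57, 38, 29, 18 and 40 UMIs in db/db control, and 0, 3, 0, 0, 2 and 0 without the barcodes that stand apart. Positive barcodes in db/m and db/db fructose differed in depth from those in db/db control by the medians given above, and the part of depth in these ratios was not tested.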

How the data were processed

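Single-cell libraries of 10x droplets were made from whole kidney, 1 per group. The deposited matrices hold raw counts of UMIs for 32285 genes, and Cell Ranger 6.0.0 and mm10 are named per the submitters' processing notes. Members and gene lists were chosen with earlier results of these data known, and MHC class II and ribosomal lists were added after their values were seen. Counts of positive and of negative barcodes were summed per library, giving 6 sums. They were tested with edgeR 4.0.16 in R 4.3.3 (filterByExpr, TMM, quasi-likelihood test, library as block, Benjamini-Hochberg adjusted p under 0.05). Each SE is the absolute log2 difference divided by the square root of the test's F statistic. It was worked back from the test and does not measure spread between libraries or mice. The 9 genes of the rule were left out of testing. Levels between libraries are ratios of sums with exact conditional 95% intervals and no test. A 2-fold ratio and 20 counts were required. Named genes were up to 4 called members per list by size of change, the 12 highest and 12 lowest called genes at 50 CPM or more, and the 6 highest and 6 lowest ratios between libraries. Other list members are named by their call. Some single genes are not reported here, but they stay in the fit and in the counts. Scrublet did not work in db/m, where it marked under 0.5% of barcodes by its own threshold, so doublets were kept and removal of the highest scores was an alternative. Alternatives included DESeq2 1.42.0, RLE normalization, other filters, depth matching and leaving out each library. The test was checked on simulated data.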

Additional observations from a re-analysis of the deposited data

Results flagged for a closer look

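The salt transporter Slc12a3, a marker of the distal convoluted tubule, differed in opposite directions between libraries. The log2 ratio of positive over negative barcodes was 0.31 in the db/db control library, with an exact 95% interval of 0.17 to 0.45 for counting error only. It was -4.16 for db/m control (-4.69 to -3.68) and -1.18 with fructose (-1.31 to -1.04). The difference between libraries was not tested. A single positive barcode of 47147 UMIs in db/db control held 285 of the 579 distal convoluted tubule marker UMIs of that library's positive barcodes. Without it and the barcode rich in stromal markers, which were left out after they were seen, 197 of 443 Slc12a3 UMIs remained in db/db control. The ratio there was then -0.42 (-0.62 to -0.21), and the opposite direction was gone.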

How the results depend on the processing

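The counts of 1415 higher and 1036 lower genes moved with the choice of barcodes and libraries. Leaving out 1 library gave 187 to 2073 higher and 50 to 1915 lower genes. DESeq2 called 851 and 305, and without the library block edgeR called 430 and 120. Depth-matched negative barcodes gave 547 and 429, and the same with at most 30% mitochondrial UMIs 602 and 476. With the top 10% of UMIs left out 19 and 16 were called, without barcodes with a Cryab UMI 41 and 23, and by Havcr1 alone 16 and 6. With at least 2 UMIs of Vcam1 and Havcr1 2587 genes fell. Barcodes with proximal over distal content gave 2126 and 2320, and with matched depth too 727 rose. No paired analysis was possible because each group has 1 library, and the library block only pairs both sums of a library. Of the named genes called, 120 of 120 kept their call with RLE normalization, 76 of 90 against depth-matched negative barcodes, 59 of 120 without the block and 16 of 109 without the top 10% of UMIs.

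The positive share in db/m was 0.591% thinned to 1500 UMIs, 0.457% without the top 10% of UMIs, 1.16% without barcodes with distal UMIs, 0.471% without Cryab, 0.338% at 2 UMIs or more and 0.0363% by Havcr1 alone. In db/db control it was 0.0880% at 2 UMIs or more and 0.0367% by Havcr1 alone. In db/db fructose it was 0.923% thinned, 0.905% without the top 10% of UMIs, 1.00% without Cryab, 0.266% at 2 UMIs or more and 0.110% by Havcr1 alone.

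Log2 differences of opposite sign to the reported ones were the following, and the cause was not tested. Without the top 10% of total UMIs the values were Ptgds -0.30, Mgp -1.07, Stmn1 -1.26, Tubb5 -0.20, Gpx1 -0.10, Gstm1 -0.11, Gpx4 -0.056, Ndufb8 -0.17, Sdf2l1 -0.062, Manf -0.16, Calr -0.21, Psmb8 -7.96, Scin -0.29, Slc12a1 0.069, Lyz2 0.52 and Rps7 -0.28. With DESeq2 the values were Mgp -0.49. Without barcodes with a Cryab UMI the values were Mgp -1.74, Stmn1 -0.065, Tubb5 -0.42, Ndufb8 -0.23, Sdf2l1 -1.04, Pdia6 -0.038, Calr -0.20, Psmb8 -0.38, Serping1 -0.45 and Scin -0.71. With at least 2 UMIs of Vcam1 and Havcr1 the values were Mgp -8.51, Serping1 -1.07 and Rgs5 -1.65. With positivity by Havcr1 alone the values were Mgp -8.84, Ndufb8 -0.085, Pdia6 -0.045, Calr -0.51, Serping1 -7.83, C1ra -7.42 and Rgs5 -9.95. Without barcodes rich in stromal markers the values were Mgp -2.86 and Serping1 -0.38. With proximal over distal content only the values were Serping1 -0.023 and Rgs5 -1.15. Without barcodes with distal segment UMIs the values were Rgs5 -8.59. Leaving out 1 library at a time, the range was Mgp from -2.6 (without db/db control) to 5.24 (without db/db fructose), Serping1 from -0.25 (without db/db control) to 3.35 (without db/db fructose) and Rgs5 from -1.36 (without db/db control) to 2.36 (without db/db fructose). Values of -7 or less come from positive sums at or near 0, depend on the prior count and are no bound. The alternatives with stromal barcodes, proximal content and combined filters were chosen after seeing the data. Depth limits genes with few UMIs in 62 to 164 positive barcodes a library, and 1 library per group leaves differences between groups without a replicate check.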
